A study of Mus musculus with 8 samples.

Results

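The genes described here make cholesterol and fatty acids under the control of SREBP, and were followed in mouse bone marrow-derived dendritic cells (BMDCs) with and without 3 G-protein coupled receptor kinases (GRKs). They are a list of 32 named genes among the 47937 gene IDs counted. Of these, 18 act in the mevalonate and cholesterol arm, 5 in SREBP control and sterol transport, and 9 in the fatty acid arm. All 32 had enough reads to be tested in every comparison.

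SREBP proteins are transcription factors that are made as membrane proteins of the endoplasmic reticulum. When membrane sterols are low, the escort protein Scap carries them to the Golgi, where proteases release the active part, and when sterols are high, Insig proteins hold the Scap-SREBP complex back. SREBP2, encoded by Srebf2, mainly drives cholesterol synthesis and uptake, and SREBP1, encoded by Srebf1, mainly drives fatty acid synthesis and desaturation. In macrophages and dendritic cells, the sterol-sensing receptor LXR drives cholesterol export and also induces Srebf1 and fatty acid genes such as Scd1 and Fasn, and genes of both pathways are known to respond to bacterial lipopolysaccharide (LPS).

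There were 8 libraries in 4 groups of 2, namely WT and 3xGrk-/- BMDCs, each unstimulated or kept for 24 h with LPS at 20 ng/ml. BMDCs are the cells that grow from bone marrow with GM-CSF, here over 8 days in medium with serum. In the 3xGrk-/- cells, floxed alleles of Grk2 and Grk6 (Grk2 fl/fl, Grk6 fl/fl) were deleted by Vav-iCre, which is active from hematopoietic precursors on, and Grk3 was lacking in the whole animal (Grk3-/-). The WT cells came from control mice without Cre, and all mice were adult and on a C57BL6/J background. The number of animals behind a library was not given in the sources used here. The study describes technical triplicates, and no source tells if the libraries of a group are separate cultures, so that every p below measures only the spread between these libraries, which may be technical.

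Counted reads ran from 4713305 to 6933358 in a library. Grk2, Grk6 and Grk3 transcripts were lower in every 3xGrk-/- library than in every WT library of the same stimulation, at 46.4% of the WT level without LPS and 27.1% with LPS for Grk2, 43.8% and 34.5% for Grk6, and 78.1% and 75.0% for Grk3. Counts per gene do not show which exons were read. In the second LPS-stimulated 3xGrk-/- library, 2.16% of the counts lay on Gm42418, which overlaps ribosomal RNA, against 0.273% to 0.638% in the other libraries. GM-CSF cultures hold a mixture of cells. A list of 14 conventional dendritic cell genes had a summed level of 27400 to 27600 CPM (counts scaled to library size) in unstimulated WT, 14100 to 14300 in unstimulated 3xGrk-/-, 18100 to 19700 in LPS-stimulated WT and 14800 to 15100 in LPS-stimulated 3xGrk-/- libraries. For 18 monocyte and macrophage genes these sums were 3080 to 3120, 12000, 1370 to 1410 and 14700 CPM. Since RNA of the whole culture was measured, fewer cells of a type and less RNA per cell cannot be told apart.

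Of the 32 genes, 25 have a promoter in the RefSeq table for GRCm38.p6, and Fdps, Fdft1, Sqle, Stard4, Scd1, Scd2 and Fads1 have no entry. In the 250 bases before the start site, on either strand, the sterol regulatory element TCACNCCAC was found in 1 of the 25 (4.0%), against 1.22% of all 27025 genes with a promoter in the table. The NF-Y box CCAAT was found in 18 (72.0%, against 37.49% of all genes), the Sp1 box GGGCGG in 20 (80.0%, against 35.36%), and the E-box CACGTG in 5 (20%, against 6.86%). All genes include those that BMDCs do not express, and a match is a description of the letters and not of binding. The promoters of 4 genes that were lower in 3xGrk-/- cells with and without LPS are shown 5′ to 3′ on the gene's strand, with the sterol element and the CCAAT box (ATTGG on the other strand) in capitals. Hmgcs1 is shown as the gene that holds the sterol element, and Cyp51, Insig1 and Fasn were chosen after their values were seen. The windows are chr13:119690151-119690350 (plus strand) for Hmgcs1, chr5:4104747-4104946 (minus strand) for Cyp51, chr5:28071163-28071362 (plus strand) for Insig1 and chr11:120824548-120824747 (minus strand) for Fasn, on GRCm38.p6.
Hmgcs1: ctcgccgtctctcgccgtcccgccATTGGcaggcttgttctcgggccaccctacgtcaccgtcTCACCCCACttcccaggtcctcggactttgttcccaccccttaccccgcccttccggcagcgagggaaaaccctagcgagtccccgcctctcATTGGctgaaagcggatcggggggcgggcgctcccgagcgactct
Cyp51: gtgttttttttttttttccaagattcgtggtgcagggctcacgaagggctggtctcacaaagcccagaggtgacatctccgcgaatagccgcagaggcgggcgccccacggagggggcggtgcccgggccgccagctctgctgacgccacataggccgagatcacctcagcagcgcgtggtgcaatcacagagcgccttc
Insig1: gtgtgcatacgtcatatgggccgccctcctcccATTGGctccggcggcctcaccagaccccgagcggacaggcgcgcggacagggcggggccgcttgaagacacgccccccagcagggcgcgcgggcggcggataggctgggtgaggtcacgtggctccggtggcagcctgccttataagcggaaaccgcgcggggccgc
Fasn: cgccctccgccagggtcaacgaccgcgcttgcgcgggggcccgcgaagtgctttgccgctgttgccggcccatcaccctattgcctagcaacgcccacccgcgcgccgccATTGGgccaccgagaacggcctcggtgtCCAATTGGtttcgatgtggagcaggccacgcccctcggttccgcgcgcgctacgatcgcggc
Hmgcs1 and Fasn end at the base before the start site, and Cyp51 and Insig1 end 49 bases earlier, where the annotated gene begins. In Hmgcs1, the sterol element lay 129 to 137 bases before the start site, with CCAAT boxes at 41 to 45 and 172 to 176 bases. Insig1 held a CCAAT box at 212 to 216 bases, Fasn had such boxes at 55 to 59, 58 to 62 and 86 to 90 bases, the nearest of them overlapping, and the shown Cyp51 window held neither motif. Over the full 250 bases, Hmgcs1 had 3 CCAAT boxes and Cyp51 had 1, which lies outside the bases shown.

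The first comparison asks how the combined loss of GRKs changed these genes in unstimulated BMDCs. More of them were lower than higher. By the quasi-likelihood test of edgeR, with p-values adjusted over all genes and called under 0.05, 16 were lower and 3 higher in 3xGrk-/- than in WT cells, where 22.7% of all 12000 genes tested were lower and 22.1% higher. The median log2 fold change of the 32 genes was −0.26, against 0.00 over all genes tested. Differences were mostly small. Only Fads2 and Fasn fell, and only Scd1 rose, by at least 1 on the log2 scale. In the fatty acid arm 6 of 9 genes fell and 2 rose, in the cholesterol arm 7 of 18 fell and 1 rose, and of the 5 control and transport genes 3 fell.

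**Figure D1:**
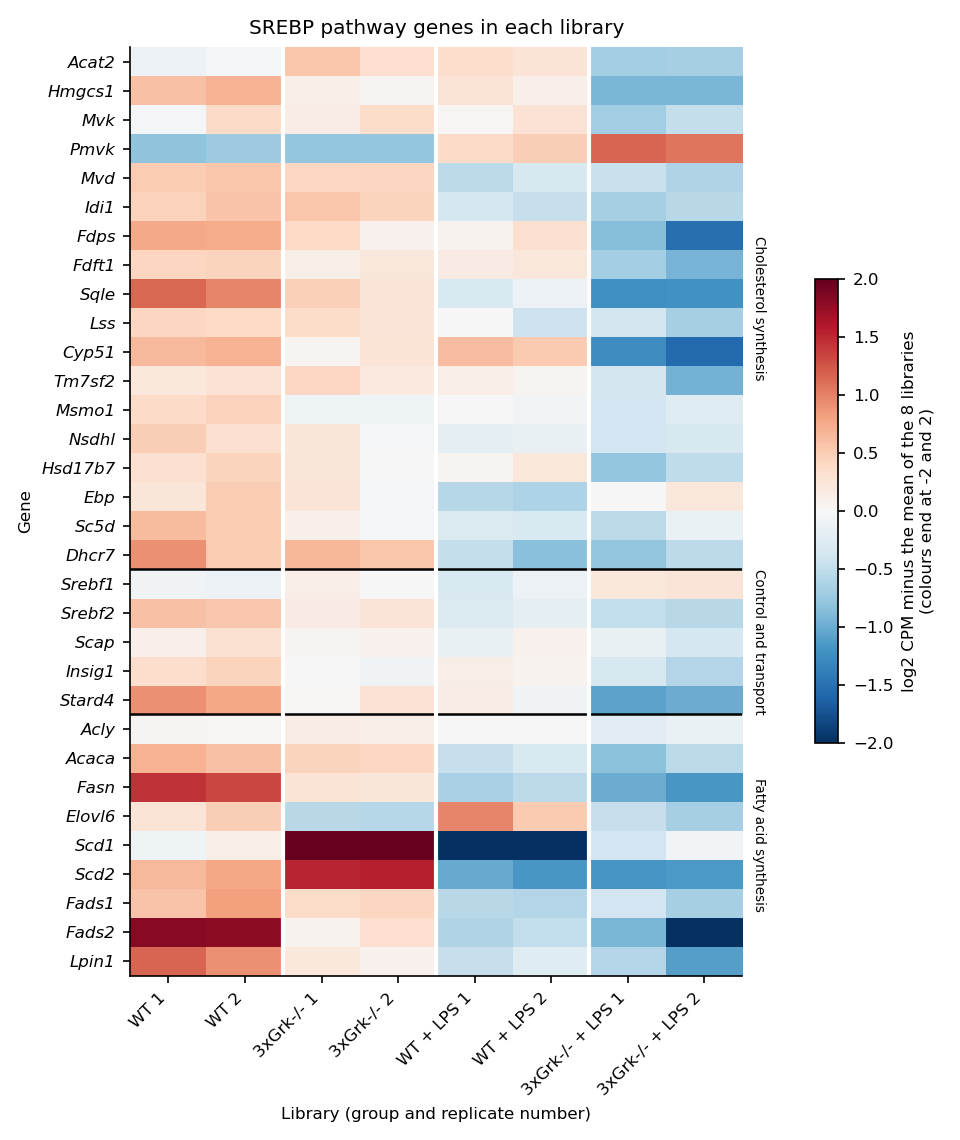
Level of the 32 genes (rows, by arm) in each of the 8 libraries (columns) as log2 CPM minus the mean of the gene over the libraries, blue lower and red higher. Most rows are bluest in the 2 LPS-stimulated 3xGrk-/- libraries, while Pmvk is red there and Scd1 and Scd2 are reddest in unstimulated 3xGrk-/- cells.

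In the fatty acid arm, Fasn, Elovl6, Fads2, Fads1, Acaca and Lpin1 fell, while Scd1 and Scd2 rose. Levels are given as CPM, scaled alike in all 8 libraries, and fold changes as log2 of 3xGrk-/- over WT with their SE. Fasn, the fatty acid synthase that builds palmitate, had 325 and 301 CPM in the WT and 144 and 141 CPM in the 3xGrk-/- libraries. Both 3xGrk-/- values lay under both WT values, at 45.5% of the WT mean (log2 fold change −1.13, SE 0.0486, adjusted p = 1.48e-116). Elovl6, which lengthens palmitate to stearate, had 12.8 and 14.9 CPM in WT and 7.18 and 7.12 CPM in 3xGrk-/- cells (−0.96, SE 0.189, adjusted p = 1.64e-06).

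Scd1 and Scd2 encode stearoyl-CoA desaturases, which introduce the first double bond. Scd1 had 9.55 and 11.1 CPM in WT and 66.4 and 64.6 CPM in 3xGrk-/- libraries. This was the largest difference of the 32 genes, 6.35-fold between the means (log2 fold change 2.65, SE 0.122, adjusted p = 1.32e-102). Scd2 rose from 158 and 171 CPM to 290 and 295 CPM (log2 fold change 0.82, SE 0.0479, adjusted p = 2.88e-64). The genotypes did not overlap for either gene, and per kb of exon Scd2 remained above Scd1 in both, with means of 30.2 and 2.11 CPM per kb in WT and of 53.6 and 13.4 CPM per kb in 3xGrk-/- cells. The 2 genes are close copies of each other, so that some reads may have been counted for the wrong copy.

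Fads2 and Fads1 encode the desaturases that act on polyunsaturated fatty acids. Fads2 had 25.2 and 24.8 CPM in WT and 7.48 and 9.03 CPM in 3xGrk-/- libraries, the largest decrease of the 32 genes (log2 fold change −1.61, SE 0.161, adjusted p = 2.6e-22). Fads1 fell by less (−0.33, adjusted p = 0.000474). Lpin1, a phosphatidate phosphatase that makes diacylglycerol for lipid assembly, fell from 53.7 and 45.4 CPM to 27.8 and 25.4 CPM (−0.88, SE 0.105, adjusted p = 5.22e-16). At the entry of the pathway, Acly, which makes cytosolic acetyl-CoA from citrate, did not pass the test (0.09, adjusted p = 0.104), and Acaca, the acetyl-CoA carboxylase, was lower by 0.21 on the log2 scale (adjusted p = 0.0249). The calls of Fads1 and Acaca were lost in DESeq2 (adjusted p = 0.0966 and 0.269). The call of Fads1 was also lost without the second WT library (−0.19, adjusted p = 0.199), and that of Acaca without the first WT (−0.15, adjusted p = 0.2), the first 3xGrk-/- (−0.21, adjusted p = 0.0948) or the second 3xGrk-/- library (−0.19, adjusted p = 0.114).

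In the cholesterol arm, the differences without LPS were spread over early and late steps. Acat2, the thiolase that makes acetoacetyl-CoA ahead of the mevalonate pathway, was the only gene of this arm that rose, from 36.1 and 38.1 CPM to 58.0 and 49.5 CPM (log2 fold change 0.54, SE 0.0936, adjusted p = 5.84e-08). A near-identical copy, Acat3, may share its reads. Hmgcs1, which makes HMG-CoA, fell from 122 and 131 CPM to 88.1 and 84.0 CPM (−0.56, SE 0.0631, adjusted p = 8.21e-18). The 4 steps from mevalonate to isopentenyl and dimethylallyl diphosphate, with Mvk, Pmvk, Mvd and Idi1, did not pass the test, with log2 fold changes of −0.11 to 0.04.

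Among the steps from farnesyl diphosphate on, Sqle, the squalene epoxidase and a rate-limiting enzyme of sterol synthesis, fell by 0.67 on the log2 scale (adjusted p = 3.39e-14). Cyp51, the lanosterol demethylase, and Msmo1, the C4-methylsterol oxidase, each fell by 0.51 (adjusted p = 3e-11 and 3.69e-08), and Sc5d, a sterol desaturase of the last steps, fell by 0.52 (adjusted p = 6.97e-05). Fdft1, the squalene synthase (−0.27, adjusted p = 0.0117), and Ebp, a sterol isomerase (−0.26, adjusted p = 0.0443), were lower by less. The calls of Fdft1 and Ebp were lost in DESeq2 (adjusted p = 0.223 and 0.398). The call of Ebp was also lost without the second WT (−0.10, adjusted p = 0.633) or the second 3xGrk-/- library (−0.13, adjusted p = 0.488), and that of Fdft1 without the second WT (−0.26, adjusted p = 0.0753) or the first 3xGrk-/- library (−0.21, adjusted p = 0.156). The other genes of this part of the pathway, which are Fdps, Lss, Tm7sf2, Nsdhl, Hsd17b7 and Dhcr7, had log2 fold changes of −0.48 to 0.06 and did not pass the test. Fdps, the farnesyl diphosphate synthase, was nearest to the threshold (−0.48, adjusted p = 0.0507), and had few reads.

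Of the control genes, Srebf2 fell by 0.35 on the log2 scale (adjusted p = 1.44e-15) and Insig1, itself an SREBP target, fell by 0.45 (adjusted p = 6.78e-07). Stard4, a carrier of cholesterol between membranes, fell from 85.2 and 77.1 CPM to 46.1 and 55.2 CPM (−0.68, SE 0.0801, adjusted p = 2.39e-16). Srebf1 (0.16, adjusted p = 0.0536) and Scap (−0.15, adjusted p = 0.109) did not pass the test. The libraries of unstimulated cells gave a common biological coefficient of variation of 0.03056, and when it was set to 0.2 for every gene, 4 of the 32 genes remained lower, namely Fasn, Elovl6, Fads2 and Lpin1, and Scd1 and Scd2 remained higher. With library size as the only scaling, the share of higher genes among all calls moved from 49.3% to 35.8%, and 20 of the 32 genes were lower and 3 higher.

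**Figure D2:**
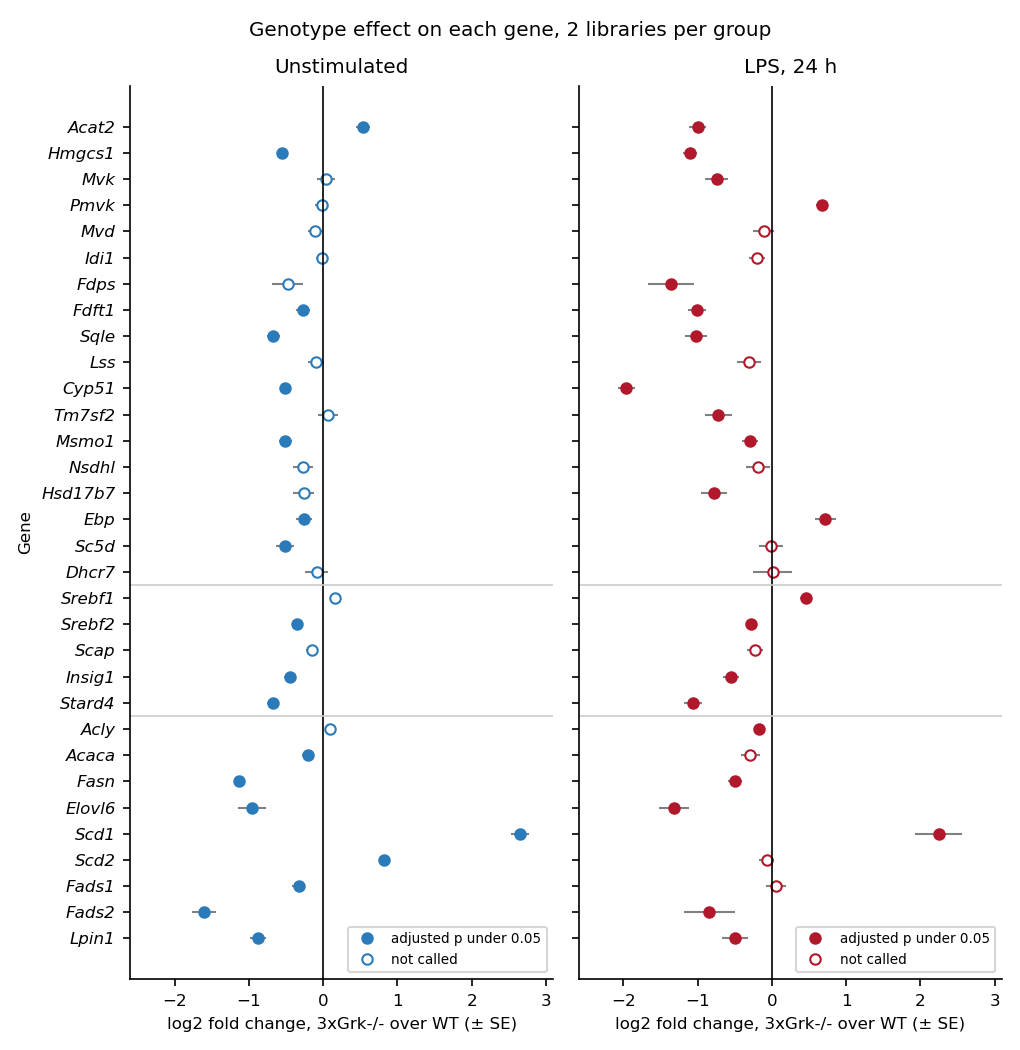
Log2 fold change of 3xGrk-/- over WT (horizontal axis, points, with bars of 1 SE) for the 32 genes, without LPS (left) and with LPS (right), with 2 libraries per group. Filled points passed an adjusted p under 0.05, which 19 genes did without and 22 with LPS, and Scd1 stands apart at 2.65 and 2.25.

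The second comparison asks the same of LPS-stimulated BMDCs. Here 18 genes were lower and 4 higher in 3xGrk-/- than in WT cells (24% and 24.7% of all 11830 genes tested were lower and higher), with a median log2 fold change of −0.30, against −0.01 over all genes tested. At least 1 on the log2 scale was reached by 7 of the lower genes, of which 5 belong to the cholesterol arm. In that arm 10 of 18 genes fell and 2 rose, with a median of −0.51. In the fatty acid arm 5 of 9 fell and 1 rose, and of the control and transport genes 3 of 5 fell and 1 rose. Without the second LPS-stimulated 3xGrk-/- library, that with the high ribosomal share, 13 genes were lower and 4 higher. With the coefficient of variation set to 0.2 in place of the 0.05729 that these libraries gave, 8 were lower and 1 higher. With library size as the only scaling, the share of higher genes among all calls moved from 50.7% to 40.9%, and 22 of the 32 genes were lower and 4 higher.

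Cyp51 showed the largest decrease, from 89.3 and 84.0 CPM in WT to 24.7 and 19.9 CPM in 3xGrk-/- cells, which is 25.8% of the WT mean (log2 fold change −1.96, SE 0.113, adjusted p = 5.22e-12). Hmgcs1 fell from 98.0 and 86.8 CPM to 42.9 and 43.0 CPM (−1.10, SE 0.0967, adjusted p = 4.67e-09). Acat2, higher in 3xGrk-/- cells without LPS, was now lower, with 50.4 and 47.7 CPM in WT and 24.2 and 24.8 CPM in 3xGrk-/- cells (−1.0, SE 0.111, adjusted p = 1.72e-07). In all 3 genes the libraries of the genotypes did not overlap. Fdps (−1.36), Sqle (−1.02), Fdft1 (−1.01), Hsd17b7, a ketosteroid reductase of the C4-demethylation complex (−0.78), Mvk, the mevalonate kinase (−0.74), Tm7sf2, a sterol reductase (−0.72), and Msmo1 (−0.29) were also lower, with adjusted p from 5.91e-07 to 0.03. Fdps had only 12 to 66 counts in a library, and 26.71% of its exon bases are shared with another annotated gene on the same strand, as are 12.08% of those of Tm7sf2 with Vps51. Of the exon bases of Fdft1, 18.31% lie opposite the abundantly read Ctsb, and the strand setting of the counting was not given in the sources used here.

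Pmvk and Ebp went against the arm. Pmvk, the phosphomevalonate kinase, had 108 and 116 CPM in WT and 186 and 173 CPM in 3xGrk-/- libraries (log2 fold change 0.67, SE 0.0732, adjusted p = 1.22e-07). Ebp had 17.6 and 17.0 CPM in WT and 26.2 and 30.6 CPM in 3xGrk-/- libraries (0.72, SE 0.14, adjusted p = 0.000203). Both were above WT in both 3xGrk-/- libraries. Mvd, Idi1, Lss, Nsdhl, Sc5d and Dhcr7 did not pass the test, with log2 fold changes of −0.31 to 0.01. Over the alternative settings and with each library left out, that of Lss ran from −0.50 to −0.10.

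Stard4 fell from 50.3 and 43.0 CPM to 21.6 and 22.9 CPM with LPS (−1.06, SE 0.121, adjusted p = 2.54e-07), and Insig1 (−0.55, adjusted p = 0.000241) and Srebf2 (−0.28, adjusted p = 0.00124) were lower too. Srebf1 was higher, with 68.9 and 78.1 CPM in WT and 99.6 and 102 CPM in 3xGrk-/- cells (0.46, SE 0.0845, adjusted p = 0.000129). The transcripts of both SREBP genes thus moved in opposite directions in LPS-stimulated 3xGrk-/- cells, whereas Scap did not pass the test (−0.23, adjusted p = 0.0786). Reads of Srebf1 from its promoters for the SREBP-1a and SREBP-1c forms were not counted apart.

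In the fatty acid arm, Elovl6 fell from 20.7 and 15.2 CPM to 7.64 and 6.65 CPM (−1.32, SE 0.205, adjusted p = 1.6e-05). Fasn fell from 76.2 and 83.1 CPM to 59.8 and 53.3 CPM (−0.50, SE 0.0938, adjusted p = 0.00015). Scd1 remained higher in 3xGrk-/- cells, with 7.82 and 9.73 CPM against 2.36 and 1.39 CPM (2.25, SE 0.315, adjusted p = 4.1e-06), at a much lower level in both genotypes than without LPS. Scd2 did not pass the test, with 49.7 and 44.6 CPM in WT and 44.4 and 45.2 CPM in 3xGrk-/- cells (−0.07, adjusted p = 0.61), and neither did Fads1 (0.06) or Acaca (−0.29).

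In DESeq2, Msmo1, Acly, Fads2 and Lpin1 did not pass with LPS (adjusted p = 0.22, 0.145, 0.287 and 0.202). The lower values of Fads2 (−0.84, adjusted p = 0.0474) and Lpin1 (−0.49, adjusted p = 0.0261) with LPS depended on the second 3xGrk-/- library, without which the log2 fold changes were −0.35 (adjusted p = 0.545) and −0.23 (adjusted p = 0.419). Acly (−0.17, adjusted p = 0.0265) kept its size without that library and lost only its call (−0.20, adjusted p = 0.187). The calls of Tm7sf2 (−0.43, adjusted p = 0.108), Msmo1 (−0.35, adjusted p = 0.0636) and Srebf2 (−0.24, adjusted p = 0.109) were lost as well. Msmo1 and Acly also lost the call without the first 3xGrk-/- library (adjusted p = 0.279 and 0.421), Msmo1 without the first WT library (adjusted p = 0.0766), Fads2 without the first or the second WT library (adjusted p = 0.076 and 0.174), and Lpin1 without the second WT library (adjusted p = 0.163).

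The comparisons with and without LPS share no library, and 12 genes were called lower in both, as were 10.5% of the 11350 genes tested in both. They are Hmgcs1, Fdft1, Sqle, Cyp51 and Msmo1 of the cholesterol arm, Srebf2, Insig1 and Stard4 of the control and transport genes, and Fasn, Elovl6, Fads2 and Lpin1 of the fatty acid arm. Of these, 7 (Hmgcs1, Sqle, Cyp51, Insig1, Stard4, Fasn and Elovl6) kept both calls under every other scaling, filter and tool tried and without each library in turn. With the coefficient of variation of 0.2, only Elovl6 of these 7 kept both. Scd1 was the only gene of the 32 higher in both, where 12.4% of all genes were. Acat2 and Ebp changed direction, the first from higher to lower and the second from lower to higher. Scd2 was higher only without LPS, Sc5d, Acaca and Fads1 were called lower only without, and Mvk, Fdps, Tm7sf2, Hsd17b7 and Acly only with LPS, and Pmvk and Srebf1 were called higher only with LPS. Mvd, Idi1, Lss, Nsdhl, Dhcr7 and Scap passed in neither. With library size as the only scaling, Nsdhl passed without, Idi1 and Lss with, and Scap with and without LPS. Over the alternatives and with each library left out, the log2 fold change of Nsdhl without LPS ran from −0.43 to −0.15. That of Scap ran from −0.23 to −0.04 without and from −0.34 to −0.09 with LPS. A call in 1 comparison alone does not show that the effects differ, which the next test addresses.

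**Figure D3:**
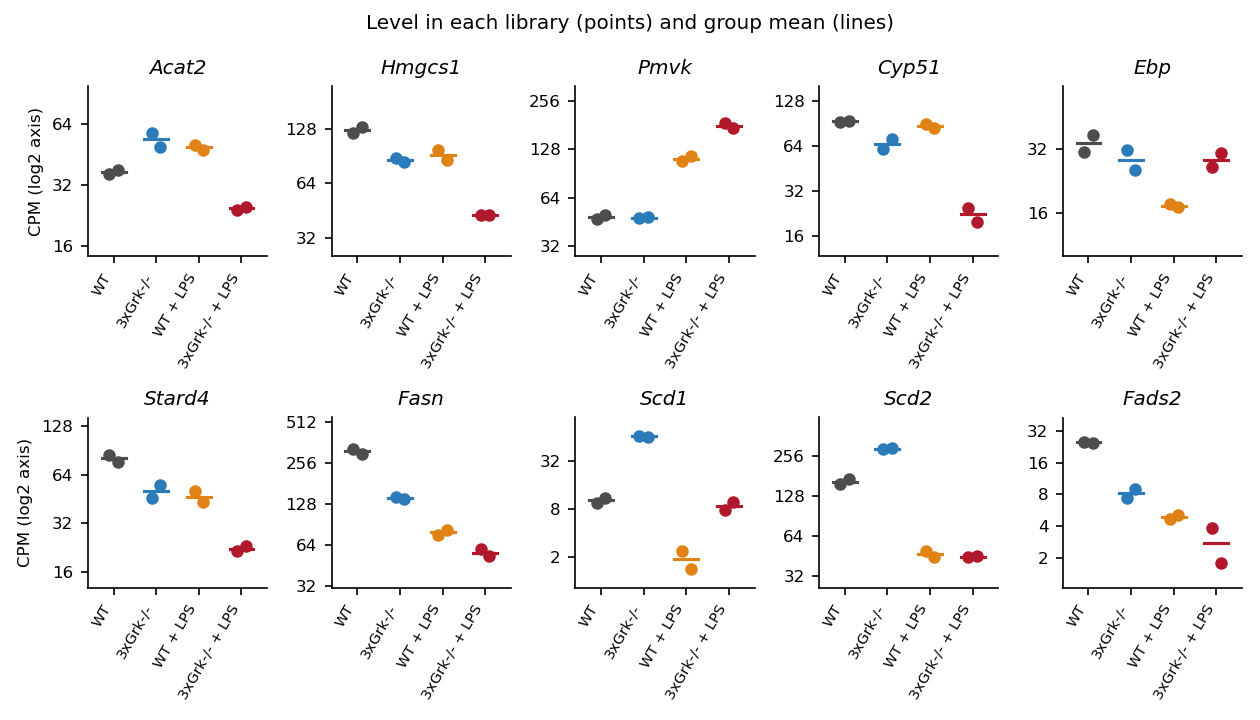
CPM (vertical axes, log2 scale, each gene on its own range) of 10 genes in the 4 groups, with a point for each of the 2 libraries and a line at their mean. Cyp51 and Hmgcs1 are lowest in LPS-stimulated 3xGrk-/- cells, Pmvk is highest there, and Scd1 is above WT in 3xGrk-/- cells in both stimulations.

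Whether the effect of the genotype differed with LPS was tested by the interaction in a single fit of all 8 libraries. It did for 13 of the 32 genes, the log2 fold change being lower after LPS for 8 and higher for 5 (16.0% and 16.5% of all 12541 genes tested). The number of higher genes was thus near the share over all genes. With the coefficient of variation set to 0.2, 2 remained lower, namely Acat2 and Cyp51, and 0 higher. The cholesterol arm held 6 of the lower and 3 of the higher genes. Acat2 (difference −1.53, SE 0.15, adjusted p = 3.2e-09) and Cyp51 (−1.46, SE 0.138, adjusted p = 1.68e-09) had the largest differences, followed by Scd2 (−0.89, SE 0.107, adjusted p = 1.18e-07), Mvk (−0.78), Tm7sf2 (−0.78), Fdft1 (−0.74), Hmgcs1 (−0.54) and Acly (−0.26). For Cyp51, the unstimulated libraries had 91.5 and 94.3 CPM in WT and 60.7 and 70.8 CPM in 3xGrk-/- cells, beside the larger gap with LPS given above. For Mvk, the unstimulated libraries had 20.6 and 27.5 CPM in WT and 23.3 and 27.3 CPM in 3xGrk-/- cells, where the genotypes overlapped, and with LPS there were 21.4 and 25.8 CPM in WT and 13.1 and 15.2 CPM in 3xGrk-/- cells.

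On the other side were Ebp (0.98, SE 0.189, adjusted p = 0.00015), Pmvk (0.69, SE 0.111, adjusted p = 1.38e-05), Fasn (0.63, SE 0.102, adjusted p = 1.48e-05), Sc5d (0.52, adjusted p = 0.0413) and Srebf1 (0.30, adjusted p = 0.0379). Ebp had 30.8 and 37.1 CPM in WT and 31.4 and 25.5 CPM in 3xGrk-/- cells without LPS, where the genotypes overlapped. For Sc5d, the levels were 33.2 and 30.4 CPM in WT and 22.9 and 21.0 CPM in 3xGrk-/- cells without LPS, and 17.4 and 17.3 CPM in WT and 14.9 and 19.5 CPM in 3xGrk-/- cells with LPS, where the genotypes overlapped. The calls of Sc5d, Srebf1 and Tm7sf2 were lost in DESeq2 (adjusted p = 0.231, 0.189 and 0.0816). Sc5d kept its call only when the second unstimulated WT or the first LPS-stimulated 3xGrk-/- library was left out, and Srebf1 only when the first unstimulated 3xGrk-/- or the second LPS-stimulated WT library was. The largest adjusted p with a library left out was 0.362 for Sc5d (0.30) and 0.197 for Srebf1 (0.23). Tm7sf2 lost its call without the first unstimulated (adjusted p = 0.0559) or the second LPS-stimulated 3xGrk-/- library (−0.50, adjusted p = 0.118), and Acly without the second unstimulated WT (adjusted p = 0.0554), the first unstimulated 3xGrk-/- (adjusted p = 0.0631) or the first LPS-stimulated 3xGrk-/- library (adjusted p = 0.0763).

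The same fit gave the response to LPS in each genotype, across the 2 tables of unstimulated and stimulated cells. LPS lowered most of these genes in both genotypes. In WT cells 23 genes fell and 2 rose (30.8% and 29.5% of all 12541 genes tested), with a median log2 fold change of −0.59. In 3xGrk-/- cells 27 fell and 2 rose (27.4% and 28% of all genes tested), with a median of −0.95. Both medians lay under the −0.01 of all genes tested. With library size as the only scaling, the median of all genes tested moved to −0.23 in both genotypes, the share of higher genes among all calls moved from 49.0% to 31.1% in WT and from 50.5% to 30.2% in 3xGrk-/- cells, and 28 of the 32 genes fell and 1 rose in each genotype.

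**Figure D4:**
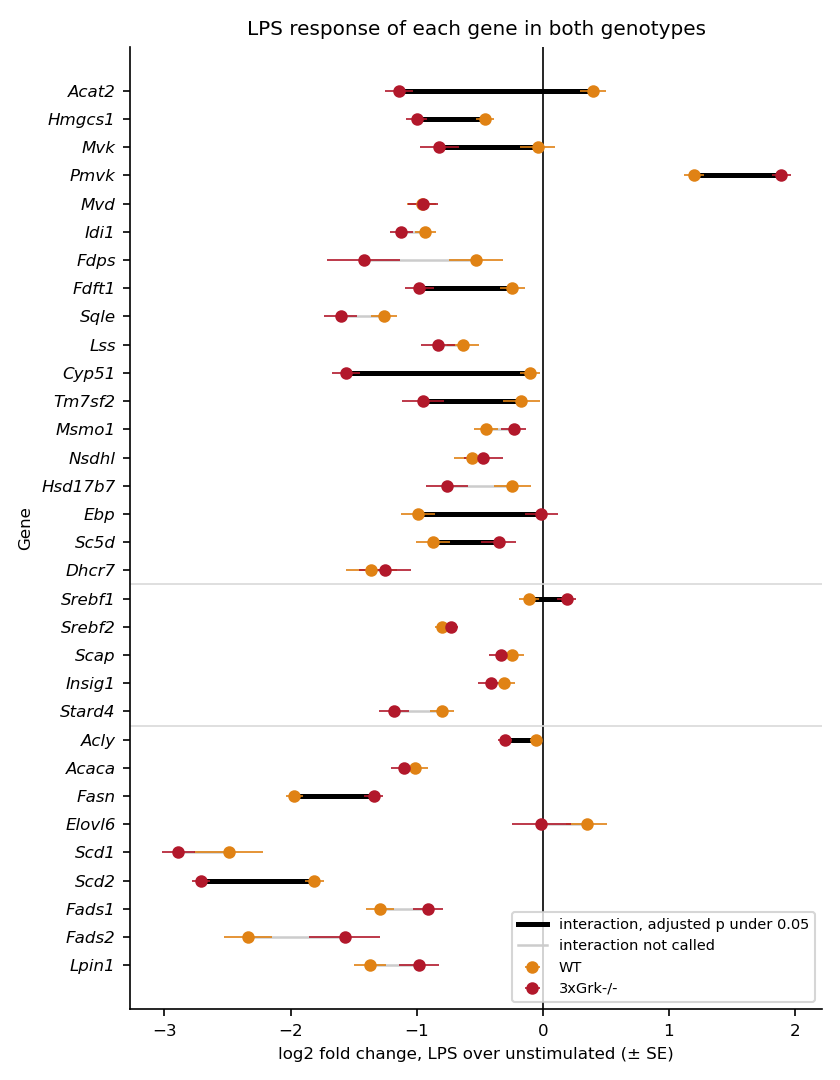
Log2 fold change of LPS-stimulated over unstimulated cells (horizontal axis, with bars of 1 SE) for the 32 genes in WT and 3xGrk-/- BMDCs, with the difference between genotypes drawn as a black line where the interaction passed an adjusted p under 0.05. Most points lie left of 0, and the longest black lines are those of Acat2 and Cyp51.

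In WT cells the fatty acid arm fell furthest, with a median of −1.37 against −0.50 in the cholesterol arm, a difference between the arms that was not tested. Scd1 fell from 9.55 and 11.1 CPM to 2.36 and 1.39 CPM (log2 fold change −2.49, SE 0.274, adjusted p = 6.6e-09), Fads2 from 25.2 and 24.8 CPM to 4.72 and 5.11 CPM (−2.34, SE 0.19), and Fasn from 325 and 301 CPM to 76.2 and 83.1 CPM (−1.97, SE 0.0669). Scd2 followed, from 158 and 171 CPM to 49.7 and 44.6 CPM (−1.81, SE 0.0737). Lpin1 (−1.37), Fads1 (−1.29) and Acaca (−1.01) also fell by at least 1 on the log2 scale, while Acly (−0.05, adjusted p = 0.433) and Elovl6 (0.35, adjusted p = 0.0673) did not pass the test. Without the second LPS-stimulated WT library Elovl6 was called higher (0.57, adjusted p = 0.00532). The summed level of the 9 genes of the arm was 985 to 1000 CPM in unstimulated and 504 to 507 CPM in LPS-stimulated WT cells.

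In the cholesterol arm of WT cells, Dhcr7, which makes cholesterol from 7-dehydrocholesterol (−1.36), Sqle (−1.26), Ebp (−0.99), Mvd, the mevalonate diphosphate decarboxylase (−0.96), Idi1, the isopentenyl diphosphate isomerase (−0.93), and Sc5d (−0.87) fell most, all with an adjusted p of at most 1.84e-06. Lss, the lanosterol synthase (−0.63), Nsdhl, a sterol dehydrogenase (−0.56), Fdps (−0.53), Hmgcs1 (−0.46), Msmo1 (−0.45) and Fdft1 (−0.24) fell by less. Cyp51 (−0.10), Mvk (−0.04), Tm7sf2 (−0.17) and Hsd17b7 (−0.24) did not pass the test. Pmvk rose from 47.2 and 50.0 CPM to 108 and 116 CPM (1.2, SE 0.0785, adjusted p = 1.33e-13), and Acat2 from 36.1 and 38.1 CPM to 50.4 and 47.7 CPM (0.40, SE 0.103, adjusted p = 0.00153), a call that library size as the only scaling ended (0.18, adjusted p = 0.131). Each of the 4 libraries left out in turn ended the call of Fdft1, with an adjusted p of up to 0.134. That of Fdps was lost without either unstimulated WT library (adjusted p = 0.0903 and 0.116) or the first LPS-stimulated one (adjusted p = 0.168).

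In 3xGrk-/- cells, 15 of the 18 cholesterol genes fell, the exceptions being Pmvk, Msmo1 (−0.23, adjusted p = 0.0588) and Ebp (−0.01, adjusted p = 0.972). Sqle fell from 46.2 and 39.9 CPM to 14.2 and 14.3 CPM (−1.60, SE 0.131, adjusted p = 2.06e-11), next to Cyp51 (−1.56), Fdps (−1.42), Dhcr7 (−1.25), Acat2 (−1.14), Idi1 (−1.12) and Hmgcs1 (−1.0). Pmvk rose from 48.2 and 48.3 CPM to 186 and 173 CPM, which is 3.72-fold between the means (1.89, SE 0.0749, adjusted p = 1.55e-18). For Cyp51, Acat2 and Mvk the fall in 3xGrk-/- cells (−1.56, −1.14 and −0.82) stood beside −0.10, 0.40 and −0.04 in WT cells, differences that are the interaction given above. The calls of Nsdhl (−0.47) and Sc5d (−0.35) were lost in DESeq2 (adjusted p = 0.0908 and 0.185) and without the first unstimulated (−0.32 and −0.28, adjusted p = 0.176 and 0.219) or the first LPS-stimulated 3xGrk-/- library (−0.44 and −0.18, adjusted p = 0.0523 and 0.4), and Sc5d also without the second unstimulated one (adjusted p = 0.0525).

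Of the fatty acid genes, 8 of 9 fell with LPS in 3xGrk-/- cells. Scd1 fell from 66.4 and 64.6 CPM to 7.82 and 9.73 CPM (−2.89, SE 0.132), Scd2 from 290 and 295 CPM to 44.4 and 45.2 CPM (−2.71, SE 0.0714), and Fads2 from 7.48 and 9.03 CPM to 3.82 and 1.78 CPM (−1.57, SE 0.28). Fasn (−1.34), Acaca (−1.10), Lpin1 (−0.98), Fads1 (−0.91) and Acly (−0.30) fell too, and Elovl6 did not pass the test (−0.01, adjusted p = 0.982). For Scd2 the steeper and for Fasn the flatter response in 3xGrk-/- cells passed the interaction test, while for Scd1 (difference −0.40, adjusted p = 0.463) and Fads2 (0.77, adjusted p = 0.127) it did not. Without the second LPS-stimulated 3xGrk-/- library, the differences of Fads2 (1.24, adjusted p = 0.0218), Lpin1 (0.64, adjusted p = 0.036) and Fads1 (0.52, adjusted p = 0.0332) passed.

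Among the control genes, Srebf2 fell with LPS from 396 and 383 CPM to 216 and 232 CPM in WT (−0.80, adjusted p = 6.98e-13) and from 295 and 315 CPM to 188 and 180 CPM in 3xGrk-/- cells (−0.73, adjusted p = 1.08e-11). Stard4 (−0.80 and −1.18), Insig1 (−0.31 and −0.41) and Scap (−0.24 and −0.33) fell in both genotypes. Srebf1 did not pass the test in WT cells (−0.11, adjusted p = 0.232) and was higher after LPS in 3xGrk-/- cells, from 93.2 and 84.2 CPM to 99.6 and 102 CPM (0.19, SE 0.0754, adjusted p = 0.0385). When only library size was used for scaling, the direction turned (−0.03, adjusted p = 0.729). The call was also lost in DESeq2 (adjusted p = 0.161) and without the second unstimulated (0.12, adjusted p = 0.327), the first LPS-stimulated (adjusted p = 0.083) or the second LPS-stimulated 3xGrk-/- library (adjusted p = 0.178). Without the second LPS-stimulated 3xGrk-/- library, Scap (−0.22, adjusted p = 0.132) and Insig1 (−0.28, adjusted p = 0.0607) did not pass in 3xGrk-/- cells. In WT cells, Scap lost its call without the second unstimulated (−0.13, adjusted p = 0.384) or the first LPS-stimulated library (−0.13, adjusted p = 0.274), and Insig1 without the second unstimulated one (−0.26, adjusted p = 0.0706). In DESeq2, Scap, Insig1, Fdps and Fdft1 did not pass in WT cells (adjusted p = 0.139, 0.0536, 0.225 and 0.191).

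Per kb of exon, the mean levels of the 32 genes in unstimulated WT cells ran from 2.11 (Scd1) to 54.3 CPM per kb (Acly), with a median of 12.1. The median was 9.57 in unstimulated 3xGrk-/-, 7.38 in LPS-stimulated WT and 5.12 CPM per kb in LPS-stimulated 3xGrk-/- cells. With LPS, Pmvk was the highest, with means of 65.5 CPM per kb in WT and 105 CPM per kb in 3xGrk-/- cells. The summed level of the 18 cholesterol genes was 809 to 836 CPM in unstimulated WT, 673 to 702 in unstimulated 3xGrk-/-, 661 to 669 in LPS-stimulated WT and 514 to 525 CPM in LPS-stimulated 3xGrk-/- libraries.

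Other genes of the pathway were followed as lists. Of 15 further SREBP target and sterol synthesis genes tested, 7 were lower and 3 higher in 3xGrk-/- cells without LPS (median −0.28), and 8 were lower and 4 higher with LPS (median −0.31). For this and the following lists, the shares over all genes are 22.7% lower and 22.1% higher without LPS and 24% lower and 24.7% higher with LPS. Named after their values were seen, Lbr, which encodes a sterol reductase of the nuclear envelope, fell in both comparisons (−1.28 and −1.44), as did Elovl5, an elongase of polyunsaturated fatty acids (−1.03 and −0.55), while Acss2, the acetyl-CoA synthetase, rose in both (1.27 and 0.83). LPS lowered 9 of the 15 and raised 3 in WT cells, and lowered 10 and raised 2 in 3xGrk-/- cells.

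Of 10 genes for SREBP cleavage, Insig function and sterol-regulated degradation, 3 were higher and 2 lower in 3xGrk-/- cells in each comparison, with medians of 0.11 and 0.12 and none reaching 1 on the log2 scale. Only Erlin1 was called in the same direction in both (−0.30 without and −0.36 with LPS), and Mbtps1 went from higher (0.22) to lower (−0.52). Of 10 genes of the isoprenoid branch, which uses farnesyl diphosphate for protein prenylation, dolichol and ubiquinone, 2 were higher and 3 lower without LPS and 2 higher and 1 lower with LPS, counts that without LPS are near the shares over all genes. Of 11 genes of fatty acid oxidation tested, 2 were higher and 3 lower in each comparison, again near the shares over all genes. These were not all the same genes, as Ppard was higher without LPS (0.48, adjusted p = 2.16e-07) and lower with LPS (−0.26, adjusted p = 0.0123). These 3 lists had medians of −0.10 to 0.12.

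Of 13 LXR, efflux and oxysterol genes, 10 were higher and 1 lower in 3xGrk-/- cells without LPS (median 0.37) and 10 higher and 1 lower with LPS (median 1.07). Their summed level was 1350 to 1380 CPM in unstimulated WT, 1950 to 1960 in unstimulated 3xGrk-/-, 2040 to 2060 in LPS-stimulated WT and 4570 to 4620 CPM in LPS-stimulated 3xGrk-/- libraries. Much of the sum with LPS came from Npc2, a lysosomal cholesterol carrier, with mean levels of 444, 478, 1330 and 2740 CPM in these groups. Named after their values were seen, Abca1, the cholesterol exporter, had 50.1 and 51.4 CPM in unstimulated WT, 141 and 144 in unstimulated 3xGrk-/-, 49.7 and 41.9 in LPS-stimulated WT and 325 and 349 CPM in LPS-stimulated 3xGrk-/- libraries. Ch25h, which makes 25-hydroxycholesterol, had log2 fold changes of 1.80 without and 2.11 with LPS, from a low mean of 2.2 CPM in unstimulated WT cells. The gene of this list called lower was Cyp27a1, also an oxysterol gene (−0.80 without and −1.01 with LPS).

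Markers of proliferation and of other cells moved with these comparisons, and their part in the results was not tested. Of 20 cell cycle genes, 20 were lower in 3xGrk-/- cells without LPS and 14 with LPS, and their summed level was 1450 CPM in unstimulated WT, 451 to 461 in unstimulated 3xGrk-/-, 371 to 389 in LPS-stimulated WT and 307 to 309 CPM in LPS-stimulated 3xGrk-/- libraries. Of the 14 conventional dendritic cell genes, 10 were lower and 3 higher without and 12 lower and 2 higher with LPS. Of the monocyte and macrophage genes, 12 were higher and 4 lower of 17 tested without LPS, and 17 of 18 were higher with LPS. The 8 eosinophil genes had a summed level of 1260 to 1330 CPM in unstimulated WT and 1150 to 1250 in LPS-stimulated WT, against 67.0 to 74.5 and 82.9 to 88.9 CPM in 3xGrk-/- cells, and 10 neutrophil genes had 721 to 766 and 340 to 396 CPM in WT against 531 to 546 and 188 to 205 CPM in 3xGrk-/- cells. Without and with LPS, 7 and 8 of the eosinophil genes and 6 and 7 of the neutrophil genes were called lower, and none higher.

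Other lists were low. In all 8 libraries, 9 mast cell and basophil genes summed to 68.1 to 96.5 CPM with Mcpt4 at 0, and of the 5 tested 1 was higher and 2 lower without LPS and 2 lower with LPS. The 8 lymphocyte genes summed to 0.15 to 1.7 CPM, and none had enough reads to be tested. The 9 stromal and adipocyte genes summed to 25.6 to 27.6 CPM in unstimulated WT, 12.4 to 12.9 in unstimulated 3xGrk-/-, 48.1 to 51.7 in LPS-stimulated WT and 256 to 271 CPM in LPS-stimulated 3xGrk-/- libraries. Of the 7 tested with LPS 6 were higher in 3xGrk-/- cells, and of the 2 tested without LPS 1 was higher and 1 lower. Most of the sum in LPS-stimulated 3xGrk-/- cells came from Dcn, a matrix proteoglycan, with 127 and 113 CPM, and Fabp4, a fatty acid carrier of adipocytes and macrophages, with 121 and 115 CPM. The adipocyte marker Plin1 was at 0 in every library, and Adipoq was at 0 in LPS-stimulated 3xGrk-/- libraries.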

How the data were processed

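RNA of WT and 3xGrk-/- BMDCs, unstimulated or stimulated with LPS, was sequenced from TruSeq stranded mRNA libraries. The authors ran snakePipes 2.1.0, used STAR 2.7.3a for alignment to mm10 and featureCounts 2.0.0 for counting. The annotation release and the strand setting were not given in the sources used here. Deposited by the authors were raw counts per gene, in 1 table per stimulation. Groups and replicate numbers came from the sample labels, and LPS dose and time from the study's methods, which give 8 to 9 days of culture where its scheme gives 8.

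Gene symbols and coordinates were taken from GENCODE M21 on GRCm38, where 47224 of the 47937 IDs matched, 39106 with their version, and 0.0847% of the counts lay on unmatched IDs. The members and lists were chosen with earlier results of these data known. Of the listed genes, Faxdc2 was not matched. Depth was 4713305 to 6933358 counted reads per library. Between replicates the chi-square per gene had a mean of 1.59 to 9.02, where counting noise alone gives 1, and a median of 0.526 to 0.874, where it gives 0.455, so that a part of the genes carried most of the excess. No library was treated as a copy of another.

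Each stimulation was fitted on its own for the genotype comparisons, and all 8 libraries together for the interaction and the LPS responses, with edgeR 4.0.16 in R 4.3.3 (TMM, filterByExpr, glmQLFit, glmQLFTest, Benjamini-Hochberg over all genes tested, adjusted p under 0.05). Every adjusted p in the text is from this test unless DESeq2 is named. For the SE, the log2 fold change fitted without a prior count was divided by the root of the F statistic. CPM were scaled by TMM over all 8 libraries, so that ratios of CPM can differ slightly from the fitted folds. Exon lengths are unions over the isoforms of a gene, which lowers values per kb for genes with many isoforms. The fits were tested on simulated data. For each comparison, values of every library are given for the 4 genes with the largest called change in each direction and a mean log2 CPM of at least 3, Scd1 and Scd2 with LPS and the control genes being added after their values were seen. The alternatives were RLE size factors, library size only, DESeq2 1.42.0, no filter, at least 10 counts in every library, a replicate block, each library left out, a coefficient of variation of 0.2, a log2 fold change of at least 1, leaving out the 20 most abundant genes, and all 8 libraries in 1 fit for the genotype comparisons. Promoters were searched by letters with Python 3.11.15. Some genes are not reported here by name.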

Additional observations from a re-analysis of the deposited data

Results flagged for a closer look

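For 13 of the 32 genes the genotype changed the level by different amounts with and without LPS, by the interaction term of the edgeR fit. The difference was lower for 8 and higher for 5 of them, beside 16.0% and 16.5% of all 12541 genes tested, so that the number of higher genes was near the share over all genes. The difference in log2 fold change, with LPS minus without, was −1.53 for Acat2, −1.46 for Cyp51, −0.89 for Scd2, −0.78 for Mvk, −0.78 for Tm7sf2, −0.74 for Fdft1, −0.54 for Hmgcs1 and −0.26 for Acly. It was 0.98 for Ebp, 0.69 for Pmvk, 0.63 for Fasn, 0.52 for Sc5d and 0.30 for Srebf1. Acat2 and Ebp were the genes of these 13 whose genotype effect was called in opposite directions in the separate comparisons, and for Ebp the call without LPS (−0.26, adjusted p = 0.0443) was lost in DESeq2 (adjusted p = 0.398).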

How the results depend on the processing

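No alternative turned the direction of a called genotype effect or interaction. Library size as the only scaling turned the LPS response of Srebf1 in 3xGrk-/- cells to −0.03 (adjusted p = 0.729). The number of members higher and lower moved as follows. With a log2 fold change of at least 1 it was 1 and 2 for the genotype without LPS, 1 and 7 with LPS, 0 and 2 for the interaction, 1 and 9 for LPS in WT and 1 and 13 for LPS in 3xGrk-/- cells. With a coefficient of variation of 0.2 (likelihood ratio test), 4 were lower for the genotype without LPS, 1 higher and 8 lower with LPS, 0 higher and 2 lower for the interaction, 1 higher and 15 lower for LPS in WT, and 1 higher and 20 lower for LPS in 3xGrk-/- cells. DESeq2 gave 12 lower for the genotype without LPS, 14 with LPS, 7 for the interaction, 19 for LPS in WT and 25 for LPS in 3xGrk-/- cells. The interaction had 3 higher in DESeq2 and 3 with the replicate block. The response to LPS had 1 higher with library size only in WT, and in 3xGrk-/- cells 1 higher with library size only, in DESeq2, with no filter and with the replicate block. With 1 library left out, the genotype without LPS gave 3 to 4 higher and 13 to 16 lower, with LPS 4 higher and 13 to 18 lower, the interaction 3 to 6 and 7 to 10, LPS in WT 2 to 3 and 19 to 22, and LPS in 3xGrk-/- cells 1 to 2 and 25 to 26. Where an arm then held 1 library, it was assumed to vary like the others. The lower counts past a fold and the lost calls under a larger spread follow from those settings, and the cause of the other changes was not tested.

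The labels number the replicates but no source ties equal numbers to a shared culture or day, and the deviations of same-numbered libraries correlated at −0.0718 to 0.0862 over 8856 genes. Besides the counts above, the replicate block gave 3 higher and 16 lower for the genotype without LPS and 4 and 17 with LPS. Few reads limit the precision for Fdps, which had 12 to 66 counts in a library, and for Fads2, Dhcr7, Elovl6 and Scd1, which had under 50 in some.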
